A study of Mus musculus with 10 samples.

Results

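Sodium-proton exchangers of the Slc9 family were examined in hematopoietic stem cells (HSCs) with and without *Cited2*. The members are *Slc9a5*, *Slc9a7*, *Slc9a8* and *Slc9a9*, 4 of the 26146 genes in the deposited count table, taken by their symbols. They were chosen by their counts in the *Cited2* CTL and *Cited2* CKO libraries of this same comparison, whose result was known, and *Slc9a9* is among the genes called in it. Their differences between the genotypes are therefore given as a description, with the error from the fit over all genes, and support no test. Of the 4 members, 3 passed the filter on low counts and *Slc9a5* did not.

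Bulk RNA was sequenced from sorted Lin-Sca1+Kit+ (LSK) CD48-CD150+ HSCs of 5 *Cited2* CTL and 5 *Cited2* CKO mice, all C57BL/6J and aged 8 to 12 weeks. *Cited2* CTL mice (genotype label wildtype) carried *Cited2* fl/fl alleles and no Cre. *Cited2* CKO mice (*Cited2* fl/fl;*Vav-iCre*, label *Cited2* KO) carried the same floxed alleles, and *Vav-iCre* is active in the whole hematopoietic system, so the deletion was not limited to the sorted cells. Libraries are called CTL 1 to CTL 5 and CKO 1 to CKO 5 after the numbers in the labels.

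Sodium-proton exchangers are membrane proteins that exchange sodium ions for protons across a membrane, and so help to set the pH of the cytoplasm or of an organelle. At the plasma membrane they remove acid from the cell in exchange for sodium. In endosomes and the Golgi they let protons leak out of a lumen that the vacuolar ATPase (V-ATPase) acidifies, and thereby hold the luminal pH at a value that suits cargo sorting and glycosylation. *Slc9a5* (NHE5) is a plasma membrane and recycling endosome exchanger best known from brain. *Slc9a7* (NHE7) resides in the trans-Golgi network, *Slc9a8* (NHE8) in the mid- and trans-Golgi, and *Slc9a9* (NHE9) in recycling and late endosomes.

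The members lie on different chromosomes of GRCm38: *Slc9a5* on chromosome 8 from 105348843 to 105369881, *Slc9a7* on chromosome X from 20105754 to 20291807, *Slc9a8* on chromosome 2 from 167421712 to 167477000, and *Slc9a9* on chromosome 9 from 94669909 to 95230445. *Slc9a9* is the longest of these loci and spans 561 kb, against 21.0 kb for *Slc9a5*, 55.3 kb for *Slc9a8* and 186 kb for *Slc9a7*. No exon of the 4 genes overlapped an exon of another annotated gene. The encoded proteins fall into separate branches. Over the aligned residues, the predicted proteins of *Slc9a7* (726 residues) and *Slc9a9* (644 residues) shared 63.7% of positions. *Slc9a8* (576 residues) shared 35.6% with *Slc9a7* and 36.7% with *Slc9a9*. *Slc9a5* (898 residues) was closest to the surface exchanger *Slc9a3* (53.0%) and shared 32.1% with *Slc9a7*, 30.1% with *Slc9a8* and 32.9% with *Slc9a9*.

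The members' promoters differed in CpG content. The 250 bases before the RefSeq start of *Slc9a9*, the member with the largest difference between the genotypes, and of *Slc9a8*, the most abundant member, are shown for this contrast, with each CG dinucleotide in capitals (GRCm38.p6, both on the plus strand). The *Slc9a9* stretch is chr9:94669642-94669891 and the *Slc9a8* stretch is chr2:167421460-167421709.
Slc9a9: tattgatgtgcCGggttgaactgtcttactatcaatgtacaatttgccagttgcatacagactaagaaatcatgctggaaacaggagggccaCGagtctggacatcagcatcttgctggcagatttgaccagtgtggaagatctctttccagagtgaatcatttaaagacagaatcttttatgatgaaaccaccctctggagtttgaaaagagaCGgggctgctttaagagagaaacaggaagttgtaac
Slc9a8: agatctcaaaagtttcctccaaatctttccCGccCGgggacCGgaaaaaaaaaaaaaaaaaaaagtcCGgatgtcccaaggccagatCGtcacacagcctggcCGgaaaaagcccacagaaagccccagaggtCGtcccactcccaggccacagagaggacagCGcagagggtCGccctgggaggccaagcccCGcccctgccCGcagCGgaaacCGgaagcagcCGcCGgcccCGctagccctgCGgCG
The *Slc9a9* stretch holds 3 CpG and the *Slc9a8* stretch 18. In the window from 250 bases before to 50 bases after the RefSeq start, *Slc9a5*, *Slc9a7* and *Slc9a8* had 20, 24 and 22 CpG and *Slc9a9* had 6, where the median of 32851 mouse promoters was 7. GC content of that window was 43.7% for *Slc9a9* and 60.7%, 70.7% and 61.3% for *Slc9a5*, *Slc9a7* and *Slc9a8*. For *Slc9a5* the window is chr8:105348008-105348307, which lies wholly before the gene position given above.

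The same 300-base windows were searched on both strands for binding motifs. No member held an E-box (CACGTG), an E2F motif (TTTCGCGC or TTTGGCGC), a RUNX motif (TGTGGT or TGCGGT) or a GATA motif (AGATAA), which were present in 7.15%, 0.813%, 22.4% and 11.2% of all promoters. The AP-2 motif GCCNNNGGC, the kind bound by the TFAP2 factors with which CITED2 can act, occurred in 16.6% of all promoters. It occurred once in *Slc9a5*, 202 bases before the RefSeq start, and once in *Slc9a8*, 27 bases before its RefSeq start. A hypoxia response core (ACGTG or GCGTG, of which ACGTG lies within the E-box) occurred once in *Slc9a7*, 17 bases before the start, and in 43.8% of all promoters. The *Slc9a9* window held none of these motifs.

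Levels are given in CPM (counts scaled to a common library total after TMM normalization) within a gene and in FPKM (CPM per kilobase of the deposited gene length) between genes. Total counts lay between 3058690 and 4548795 per library. 2 of the *Cited2* CKO libraries stood apart from their label or from the others by *Cited2* or by sex-linked transcripts. *Cited2* was at 101 to 222 CPM in *Cited2* CTL libraries, at 3.803, 4.21, 5.00 and 8.30 CPM in CKO 1, CKO 2, CKO 4 and CKO 5, and at 120.1 CPM in the library labelled CKO 3. The X-linked *Xist* was high (1249.9 to 1316 CPM) in CTL 2, CTL 4, CKO 2 and CKO 3, and in 3 of these libraries the Y-linked *Ddx3y* was at most 0.236 CPM. CKO 2 had *Ddx3y* at 119 CPM beside its high *Xist*, and the remaining libraries had 189 to 279 CPM. All libraries were kept in their labelled groups, and the log2 fold changes of the tested members and of the other tested Slc9 genes are also given without CKO 2 or CKO 3. For the gene lists and the neighbouring genes, edgeR called 0 genes also when either library was left out.

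HSC markers (12 genes, led by *Kit*) were present in every library, with a summed level of 2423 to 2736 CPM in *Cited2* CTL and 2164 to 2470 CPM in *Cited2* CKO HSCs. For sums over the markers of megakaryocyte, erythroid, granulocyte, monocyte and macrophage, B cell, T and NK cell, and stromal and endothelial cells, the genotypes overlapped. The granulocyte sum varied widely within genotypes. It was 745 CPM in CTL 5 against 188 to 317 CPM in CTL 1 to CTL 4. In CKO 5 it was 475 CPM, against 148 to 292 CPM in CKO 1 to CKO 4. The mast cell and basophil list (6 genes) did not overlap, at 33.8 to 56.7 CPM in *Cited2* CTL and 60.3 to 118 CPM in *Cited2* CKO libraries. *Cpa3*, mast cell carboxypeptidase, made up most of it, at 29.0 to 50.6 and 45.9 to 107 CPM (means 36.6 ± 9.71 and 72.0 ± 24.5 CPM, SD, n = 5 each). *Ms4a2*, the beta chain of the high-affinity IgE receptor, was at 0.438 to 4.87 CPM in *Cited2* CTL and 0 to 10.6 CPM in *Cited2* CKO libraries (means 3.45 ± 1.76 and 5.94 ± 4.16 CPM). Both had positive log2 fold changes, 0.98 for *Cpa3* (adjusted p = 0.0986) and 0.78 for *Ms4a2* (adjusted p = 0.734), and neither was called by edgeR, whereas DESeq2 gave *Cpa3* an adjusted p of 0.00620. Of the defining mast cell protease genes, *Tpsb2* had at most 1 count and *Cma1* at most 8 counts in any library, and the basophil proteases *Prss34* and *Mcpt8* at most 9 and 29 counts.

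Levels were compared among the members and 6 other Slc9 exchangers. In *Cited2* CTL HSCs, *Slc9a8* had the highest level of these 10 genes at 19.2 ± 2.24 FPKM (SD, n = 5), and its library range did not overlap with that of the gene that followed. That gene was *Slc9b2*, a more distant exchanger of the NHA branch, at 5.70 ± 1.89 FPKM. *Slc9a9* held place 3 at 2.99 ± 1.00 FPKM and *Slc9a7* place 4 at 2.70 ± 0.874 FPKM. Every neighbouring pair from *Slc9b2* down to *Slc9a4*, the last, overlapped in range, so *Slc9a9* and *Slc9a7* did not differ beyond their spread. *Slc9c1*, *Slc9a3*, *Slc9b1* and *Slc9a2* followed at 1.27, 1.11, 1.098 and 0.476 FPKM, and *Slc9a5* held place 9 of 10 at 0.182 ± 0.1004 FPKM. Among all tested genes, the *Cited2* CTL level of *Slc9a8* was at percentile 55.03, that of *Slc9a9* at percentile 19.7 and that of *Slc9a7* at percentile 18.5.

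**Figure D1:**
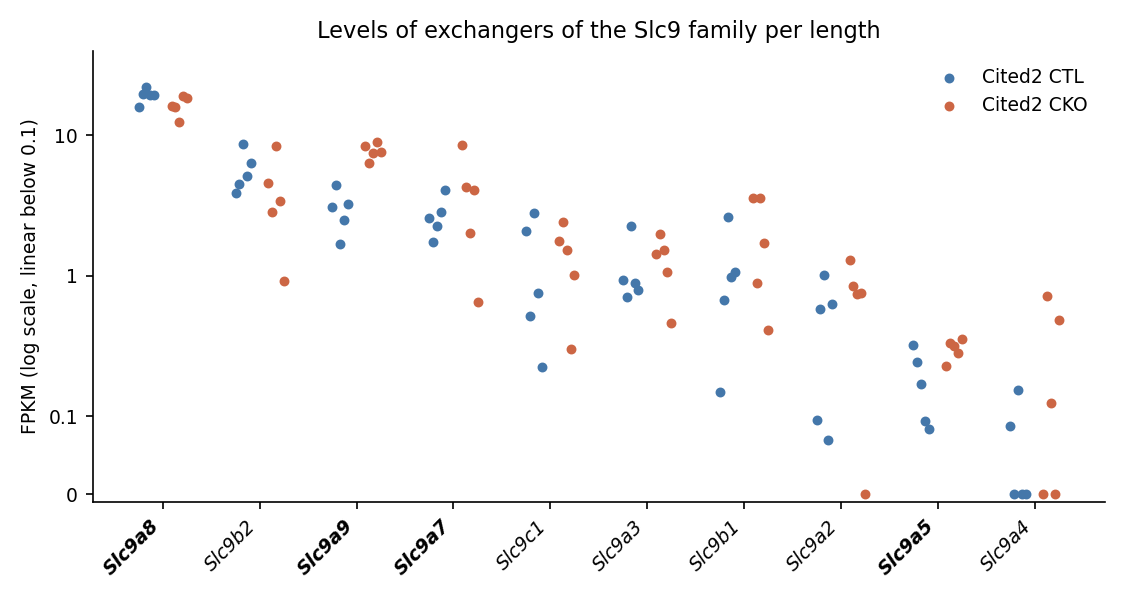
Level of the 4 members and 6 other Slc9 exchangers in FPKM (log scale, linear below 0.1), 1 point per library, ordered by the Cited2 CTL mean, with the members in bold. Slc9a8 is highest in Cited2 CTL libraries, and Slc9a9 moves from place 3 in Cited2 CTL to place 2 in Cited2 CKO.

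In *Cited2* CKO HSCs *Slc9a8* was again first at 16.5 ± 2.58 FPKM, without overlap with the next gene. *Slc9a9* held place 2 at 7.74 ± 1.01 FPKM, next to *Slc9b2* at 4.04 ± 2.78 FPKM, with overlapping ranges. *Slc9a7* was again at place 4 with 3.92 ± 3.00 FPKM and *Slc9a5* at place 9 with 0.302 ± 0.0491 FPKM.

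*Slc9a9* was the member that differed most between the genotypes. It was measured at 10.7, 15.4, 5.88, 8.77 and 11.4 CPM in CTL 1 to CTL 5, and at 29.5, 22.0, 26, 31.2 and 26.5 CPM in CKO 1 to CKO 5. The lowest *Cited2* CKO library, CKO 2, lay above the highest *Cited2* CTL library, CTL 2. The library labelled CKO 3, in which *Cited2* was not reduced to the level of the other *Cited2* CKO libraries, had 26 CPM of *Slc9a9* and lay among them. These values rest on 20 to 61 counts per *Cited2* CTL library and 89 to 124 counts per *Cited2* CKO library. The mean went from 10.4 ± 3.51 to 27.0 ± 3.52 CPM (SD, n = 5 each), 2.59 times the *Cited2* CTL mean. In the fit over 14165 tested genes the log2 fold change was 1.37 with a standard error of 0.24 (Benjamini-Hochberg adjusted p = 0.0360 by the quasi-likelihood test of edgeR, used for every difference that follows), which met the call rule of an adjusted p under 0.05 and a fold change above 20%. By that rule 17 genes were called higher (0.120% of those tested) and 15 lower (0.106%). The libraries of the genotypes did not overlap, with *Cited2* CKO higher, for 191 genes (1.35%), and *Slc9a9* had rank 27 by p-value and rank 141 by log2 fold change. Since *Slc9a9* was chosen for this difference, its call and its ranks describe it and are no evidence for it.

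**Figure D2:**
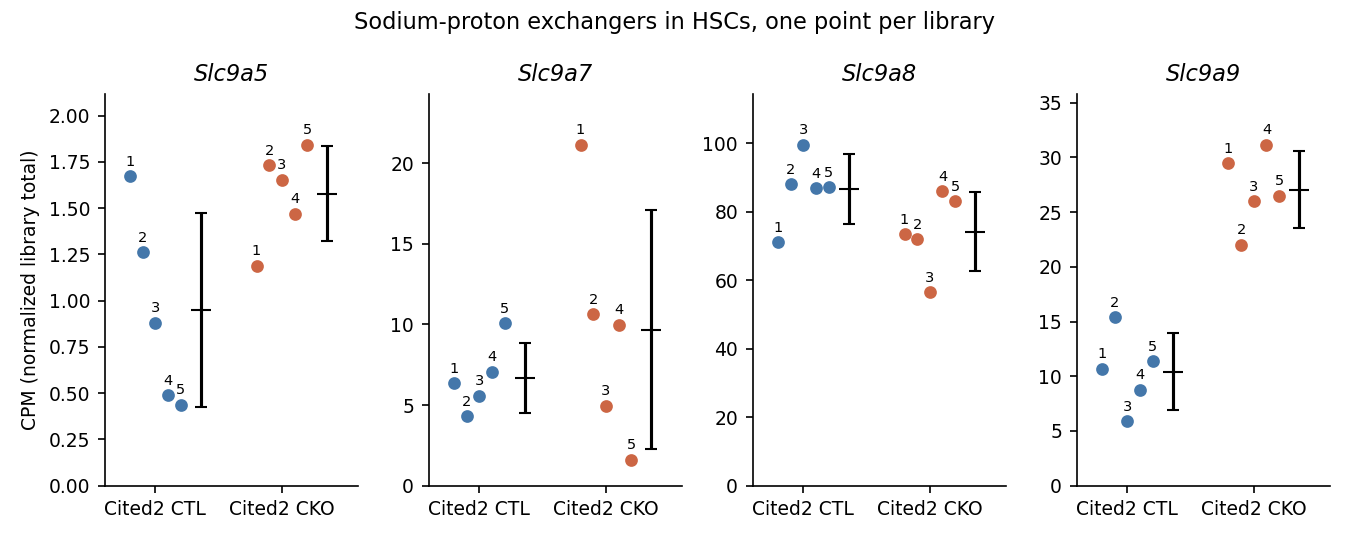
CPM of the 4 members, 1 numbered point per library, with the mean and SD of each genotype as a bar beside the points (n = 5, vertical axes differ and start at 0). Slc9a9 is the member whose genotypes do not overlap (5.88 to 15.4 against 22.0 to 31.2 CPM).

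The size of the *Slc9a9* difference moved little with the processing, whereas its call was lost in many settings. Over all alternatives the log2 fold change of *Slc9a9* stayed between 1.22 and 1.55. The adjusted p was 0.168 with a GC and length offset (a correction fitted to each library) and 0.0620 with *Xist* as a covariate (edgeR). Leaving out 1 library at a time gave adjusted p from 0.0376 to 0.0929, and the call was kept in 1 of 10 such fits, the one without CTL 2. Without the library labelled CKO 3 the log2 fold change was 1.38 (adjusted p = 0.0518), and without CKO 2 it was 1.43 (adjusted p = 0.0770). The summed mast cell and basophil markers were also higher in every *Cited2* CKO library (60.3 to 118 against 33.8 to 56.7 CPM), and their part in the result was not tested. In bulk RNA, more cells of a type and more RNA per cell cannot be told apart.

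**Figure D3:**
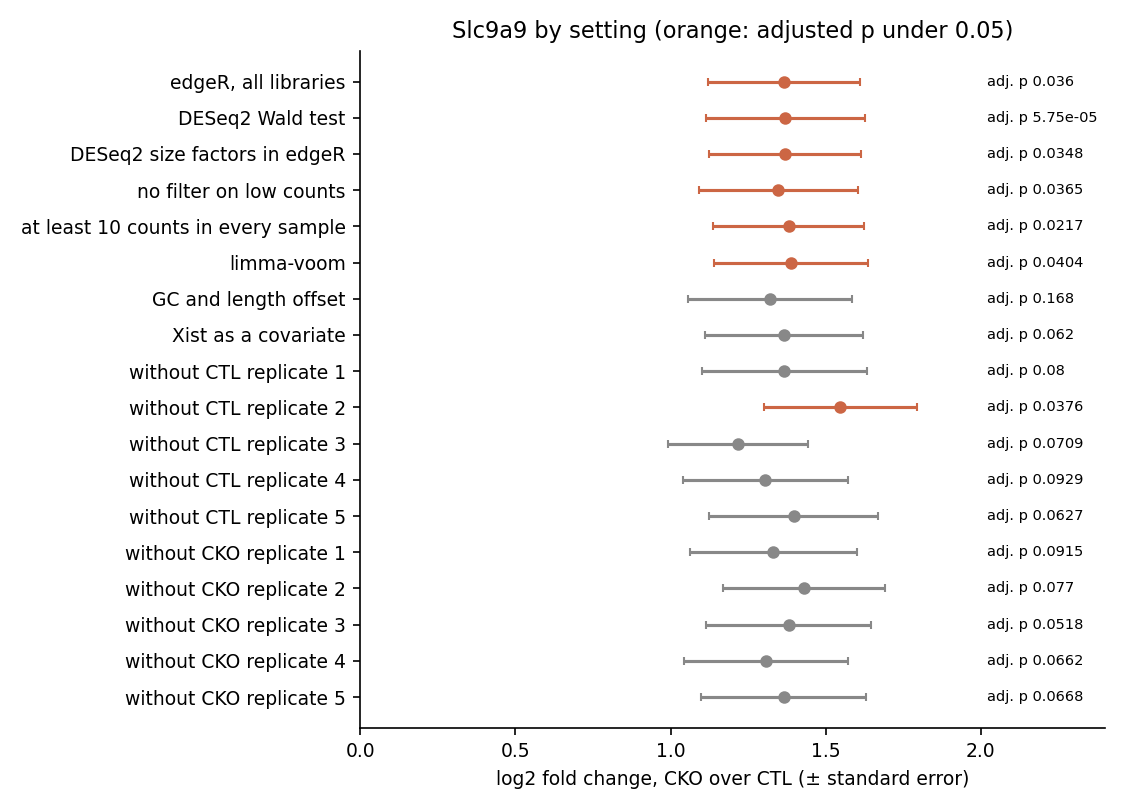
Log2 fold change of Slc9a9 (Cited2 CKO over Cited2 CTL, horizontal axis) with its standard error under the processing alternatives that model the genotype without the replicate number, with the adjusted p printed at the right and in orange where it is under 0.05. The estimates lie between 1.22 and 1.55, and the adjusted p is under 0.05 with all libraries in edgeR, in 5 of the alternative fits that keep all libraries, and without CTL 2.

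*Slc9a8* differed little. It was measured at 71.2, 88.2, 99.7, 87.0 and 87.3 CPM in CTL 1 to CTL 5, and at 73.4, 72.0, 56.5, 86.1 and 83.2 CPM in CKO 1 to CKO 5. The genotypes overlapped, with the highest values in CTL 3 and CTL 2 and the lowest in the library labelled CKO 3. Means were 86.7 ± 10.1 CPM without Cre and 74.2 ± 11.6 CPM with it (SD, n = 5 each), on 213 to 399 counts per library. The log2 fold change was -0.23 with a standard error of 0.13 (adjusted p = 0.480, edgeR). It was -0.14 without the library labelled CKO 3, -0.22 without CKO 2 and -0.095 with the GC and length offset. GC content of the *Slc9a8* transcript was at percentile 76.0 of tested genes, against 43.6 for *Slc9a9*, 60.5 for *Slc9a7* and 84.2 for *Slc9a5*.

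*Slc9a7* varied more among *Cited2* CKO libraries than between genotypes. It was measured at 6.35, 4.29, 5.59, 7.07 and 10.1 CPM in CTL 1 to CTL 5, and at 21.2, 10.6, 4.96, 9.995 and 1.61 CPM in CKO 1 to CKO 5. CKO 1 held the highest and CKO 5 the lowest value of all 10 libraries, on 89 and 7 counts. The log2 fold change was 0.53 with a standard error of 0.54 (adjusted p = 0.727, edgeR), and the means were 6.67 ± 2.16 and 9.67 ± 7.42 CPM (SD, n = 5 each). It became 0.016 without CKO 1, 0.79 without CKO 5, 0.69 without the library labelled CKO 3 and 0.49 without CKO 2, and 0.066 with limma-voom. *Slc9a7* is X-linked, and the *Xist* covariate left the log2 fold change of *Slc9a7* at 0.54.

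*Slc9a5* was near the detection limit. CTL 1 to CTL 5 had 5, 5, 3, 2 and 2 counts, and CKO 1 to CKO 5 had 5, 7, 7, 5 and 8 counts. In CPM these are 0.438 to 1.67 in *Cited2* CTL and 1.19 to 1.84 in *Cited2* CKO libraries, and the ranges overlapped. The counts summed to 17 and 32, and the means were 0.948 ± 0.524 and 1.58 ± 0.257 CPM (SD, n = 5 each). The gene failed the filter on low counts and was left out of the fit over 14165 genes. In the edgeR fit with no such filter its log2 fold change was 0.72 with a standard error of 0.85 (adjusted p = 0.831), and DESeq2 estimated 0.77 with a standard error of 0.73 and gave no adjusted p.

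The make-up of the endosomal and Golgi members followed these values. Of the summed FPKM of *Slc9a7*, *Slc9a8* and *Slc9a9*, *Slc9a9* contributed 14.3, 17.2, 6.47, 10.2 and 12.2% in CTL 1 to CTL 5, and 25.4, 23.7, 33.9, 27.8 and 28.4% in CKO 1 to CKO 5. *Slc9a8* contributed 72.5 to 84.8% in *Cited2* CTL (mean 77.1 ± 4.87%) and 48.9 to 69.1% in *Cited2* CKO libraries (58.9 ± 7.24%, SD, n = 5 each). Neither share overlapped between the genotypes. Since shares sum to a fixed total, a larger share of any exchanger lowers the summed share of the others, though not each of them. *Slc9a7* contributed 6.77 to 15.3% and 2.45 to 25.7%, with overlap. The FPKM of *Slc9a9* was 0.0762 to 0.226 times that of *Slc9a8* in *Cited2* CTL and 0.395 to 0.594 times in *Cited2* CKO libraries.

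**Figure D4:**
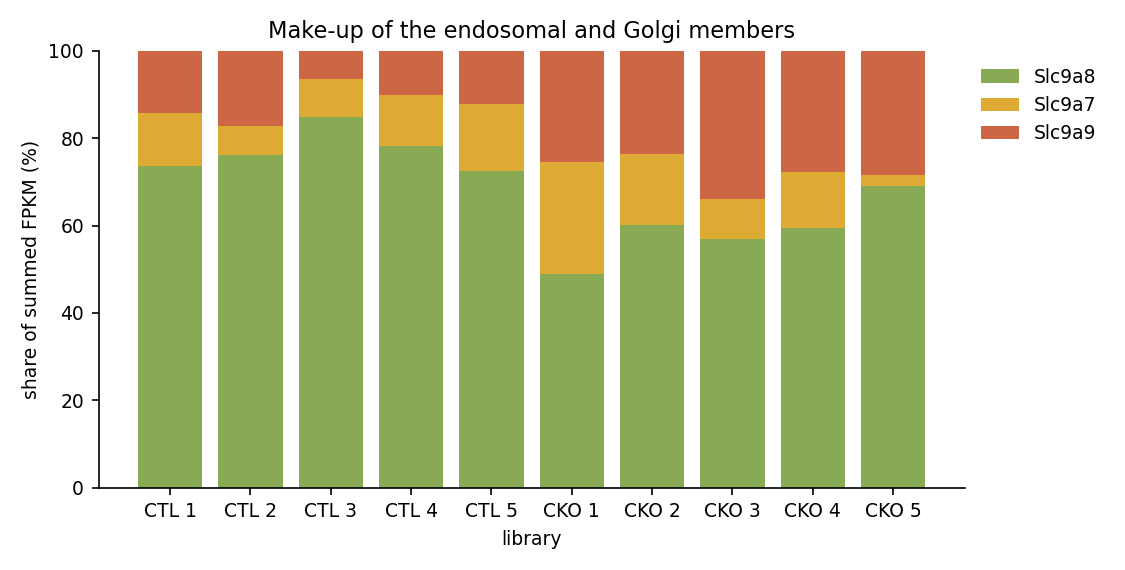
Share of Slc9a7, Slc9a8 and Slc9a9 in their summed FPKM (percent), 1 stacked bar per library. The Slc9a9 segment spans 6.47 to 17.2% in the Cited2 CTL libraries and 23.7 to 33.9% in the Cited2 CKO libraries.

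Set against *Slc9a5*, the member with a place at the plasma membrane, the 3 endosomal and Golgi members held 98.5 to 99.7% of the summed FPKM of the members in *Cited2* CTL and 98.6 to 99.3% in *Cited2* CKO libraries, and the genotypes overlapped. Their summed level was 24.9 ± 2.08 and 28.1 ± 4.596 FPKM (SD, n = 5 each). The share holds for the members only, and *Slc9a5* was near the detection limit. The sum leaves out *Slc9a3*, *Slc9a2* and *Slc9a4*. These had means of 1.11, 0.476 and 0.0483 FPKM in *Cited2* CTL and 1.29, 0.729 and 0.264 FPKM in *Cited2* CKO libraries.

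Other exchangers of the family showed no call, where edgeR called 0.120% of all tested genes higher and 0.106% lower. At these shares a list of few genes mostly holds no call. Of 6 other Slc9 genes examined, 5 were tested, none was called by edgeR, DESeq2 or limma-voom, and none had an unadjusted p under 0.05. Their log2 fold changes lay between -0.49 (*Slc9b2*) and 0.88 (*Slc9b1*), with a median of 0.22 where all tested genes had 0.0065. The median of the 3 tested members, which were chosen with this contrast known, was 0.53, the value of *Slc9a7*. These values moved with single libraries. *Slc9b2* had -0.96 without the library labelled CKO 3, -0.40 without CKO 2, -0.30 without CTL 3 and -0.25 without CKO 5. *Slc9b1* had 0.61 without CTL 1, 1.45 without CTL 3 and 1.07 without CKO 2, and failed the filter on low counts without CKO 1 or CKO 3. The log2 fold change of *Slc9a2* was 0.60, and it was 0.28, 0.32 and 0.35 without CKO 1, CTL 4 and CTL 1, 1.03 and 0.91 without CTL 3 and CKO 5, and 0.53 and 0.58 without CKO 2 and CKO 3. *Slc9a3*, at 0.22, had 0.011 without CKO 2, 0.15 without CKO 3, 0.63 without CTL 3 and 0.43 without CKO 5, and between 0.092 and 0.28 without any other library. *Slc9c1*, known from sperm, had 0.16, which turned to -0.017 with the GC and length offset, to -0.12 without CKO 2 or CTL 5 and to -0.042 without CTL 2. It was 0.13 without CKO 3, 0.018 without CTL 4, 0.064 without CKO 1 and 0.68 without CTL 3. *Slc9a4* had 1, 0, 2, 0 and 0 counts in CTL 1 to CTL 5 and 0, 11, 2, 0 and 8 counts in CKO 1 to CKO 5, and was not tested.

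No pair of members had a correlation within the genotypes that passed the adjustment over pairs. Log2 CPM of each pair was correlated over the 10 libraries after the mean of each genotype was removed, which leaves out the difference by which the genes were chosen. Of 6 pairs, the strongest relation was that of *Slc9a5* and *Slc9a7*, with Pearson's r = -0.46 (permutation p = 0.0219, adjusted p = 0.132 over the 6 pairs, two-sided, n = 10) and Spearman's rho = -0.65 (permutation p = 0.0301, adjusted p = 0.181). It was -0.48 without CTL 4 and CTL 5, the libraries farthest from the median of *Slc9a5*, and rests on the few counts of that gene. The other pairs had r between -0.30 and 0.14, with adjusted p = 0.888 for each (permutation test). *Slc9a9* and *Slc9a8* had r = -0.14 and rho = 0.24. Their r was -0.25 without CTL 1 and CKO 3. *Slc9a7* and *Slc9a8* had r = -0.063, which became 0.41 without CKO 1 and CKO 5.

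By the same measure, the genes most like each member were sought among 11248 or 11249 genes whose log2 CPM averaged 3 or more, as a description over 10 libraries that share depth and composition. The highest r among so many genes over 10 libraries is large by selection alone, and none of these was tested. *Slc9a9* was nearest to *Tatdn3* (r = 0.97), *Sh2b2* (0.92) and *Bcl2l2* (0.90). None of these differed between the genotypes as *Slc9a9* did, with log2 fold changes of -0.19, -0.18 and 0.14 and no call. *Slc9a8* was nearest to *Slc22a17* (0.94), *Zfp821* (0.93) and *Ebi3* (0.93). For *Slc9a7* these were *Zfp459* (0.95), *Fam83d* (0.95) and *Pbxip1* (0.93), and for *Slc9a5*, at its few counts, *Frmd7* (0.96), *Endov* (0.93) and *Aldoa* (0.93).

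Genes next to the members were not called by edgeR, which called 0.120% of all tested genes higher and 0.106% lower. At these shares so few neighbours mostly hold no call. Within 500 kb of *Slc9a9*, 3 of 5 genes were tested: *Chst2* had a log2 fold change of 0.37, *U2surp* 0.090 and *Trpc1* 0.56, with adjusted p from 0.664 to 0.748 (edgeR). Near *Slc9a8*, 14 genes were tested, with a median of -0.16, and *Ddx27* (-0.24) and *Cse1l* (0.20) had the smallest p. Of 8 genes near *Slc9a7*, *Cdk16* was below the *Cited2* CTL range in every *Cited2* CKO library (118 ± 6.21 and 89.2 ± 10.5 CPM), with a log2 fold change of -0.40 and adjusted p = 0.0948 (edgeR), and *Uba1* had -0.16. Such a separation with *Cited2* CKO lower was found for 280 genes (1.98%). Near *Slc9a5*, 33 genes were tested, with a median of -0.22. Of these, 26 had a negative and 7 a positive log2 fold change, against 6934 and 7231 of all tested genes. *Ces2g* had 0.74 (42.7 ± 12.0 and 71.5 ± 5.01 CPM, edgeR adjusted p = 0.105) and *Zdhhc1* -0.49 (46.7 ± 4.94 and 33.1 ± 6.98 CPM, edgeR adjusted p = 0.230), both without overlap. DESeq2 called *Cdk16* and *Ces2g* (adjusted p = 0.00966 and 0.0106).

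Genes that work with the exchangers were taken from lists written from general knowledge. Over all tested genes edgeR called 17 higher (0.120%) and 15 lower (0.106%), and DESeq2 called 146 higher and 192 lower. At the edgeR shares a list of this length mostly holds no call, so 0 calls in a list is no result about its genes. Of all 14165 tested genes, 821 (5.80%) had an unadjusted p under 0.05 with a higher level in *Cited2* CKO HSCs and 1003 (7.08%) with a lower level, and each count of unadjusted p-values in a list is to be read against these shares. Among 20 tested partners that bind, anchor or regulate exchangers, none was called by edgeR, 4 had an unadjusted p under 0.05 and a lower level in *Cited2* CKO HSCs, and the median log2 fold change was -0.038. *Slc9a3r2* (NHERF2), a PDZ scaffold that anchors *Slc9a3* at the membrane, was at 21.7 to 46.2 CPM in *Cited2* CTL and 11.6 to 18.2 CPM in *Cited2* CKO libraries, without overlap (log2 fold change -1.003, standard error 0.25, edgeR adjusted p = 0.117). *Scamp5*, a secretory carrier membrane protein of endosomal and Golgi vesicles, was at 4.01 to 8.53 and 0.691 to 3.96 CPM, without overlap (log2 fold change -2.03, standard error 0.59, edgeR adjusted p = 0.168). DESeq2 called both (adjusted p = 0.0182 and 0.0230). The others were *Ezr* (ezrin, -0.33), which links NHERF scaffolds to actin, and the kinase *Rps6ka1* (-0.19), named after their values were seen.

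The proton pump that the intracellular exchangers oppose gave no call, which is near the share of all tested genes given above. Of 20 tested V-ATPase genes none was called by edgeR or DESeq2, 2 had an unadjusted p under 0.05, and the median was -0.016. The accessory subunit *Atp6ap1* (162 ± 3.98 and 185 ± 16.9 CPM) and the regulatory subunit *Atp6v1c1* (121 ± 13.2 and 139 ± 7.92 CPM) had log2 fold changes of 0.19 and 0.20. The organellar chloride-proton exchangers of the CLC family and *Ostm1* (6 tested) had a median of -0.017, with *Ostm1*, the partner of the lysosomal exchanger, at 0.23 and *Clcn6* at -0.53, with no call by edgeR or DESeq2 and no unadjusted p under 0.05.

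The list of acid-base transport at the plasma membrane also holds carbonic anhydrases from inside the cell. It gave no call by edgeR or DESeq2 among 19 tested genes, with a median of 0.023 and 1 unadjusted p under 0.05. *Emb* (embigin), which escorts monocarboxylate transporters, was at 243 ± 30.3 and 291 ± 12.5 CPM, and the bicarbonate cotransporter *Slc4a4* had a log2 fold change of 1.37 at 2.71 ± 2.49 and 7.08 ± 5.16 CPM. The sodium pump and sodium transport list (8 tested, no call by either tool, median 0.022) held 2 genes with an unadjusted p under 0.05. *Atp1b3*, a beta subunit of the sodium pump whose gradient drives the surface exchangers, was at 195 to 219 and 226 to 258 CPM, without overlap (log2 fold change 0.21, edgeR adjusted p = 0.181). *Slc8b1*, the mitochondrial sodium-calcium exchanger, had -0.69 (23.9 ± 4.09 and 14.8 ± 2.99 CPM, adjusted p = 0.196).

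The compartments in which *Slc9a9*, *Slc9a7* and *Slc9a8* reside were also described by lists. Of 31 tested genes of recycling and late endosomes none was called by edgeR, and 1 had an unadjusted p under 0.05 upwards and 4 downwards, with a median of -0.00084. *Igf2r*, which sorts lysosomal enzymes to late endosomes, was at 19.5 to 26.5 CPM in *Cited2* CTL and 3.82 to 11.8 CPM in *Cited2* CKO libraries, without overlap. Its log2 fold change was -1.37 with a standard error of 0.31 (edgeR adjusted p = 0.0865), and DESeq2 called it (adjusted p = 0.00242). *Rab11fip5*, an effector of the recycling GTPase RAB11, had -0.47 (45.2 ± 5.41 and 32.7 ± 6.39 CPM, adjusted p = 0.243). *Hgs* (-0.34), *Rab11fip1* (-0.38) and *Ehd3* (0.44), which act in endosomal sorting and recycling, were the others, also chosen with their values in view. Of 32 tested Golgi genes none was called by edgeR, 2 had an unadjusted p under 0.05 upwards and 1 downwards, and the median was 0.038. *Arfgef1*, an exchange factor for Golgi ARF GTPases, had 0.45 (141 ± 22.9 and 192 ± 23.1 CPM, adjusted p = 0.117; 0.0169 in DESeq2), and *Man2a1*, a mannosidase of N-glycan processing, had 0.52 (29.0 ± 7.11 and 41.7 ± 9.65 CPM, adjusted p = 0.311). The gene on the lower side was the adaptor subunit *Ap1m1* (-0.17), also named after its value was seen.

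**Figure D5:**
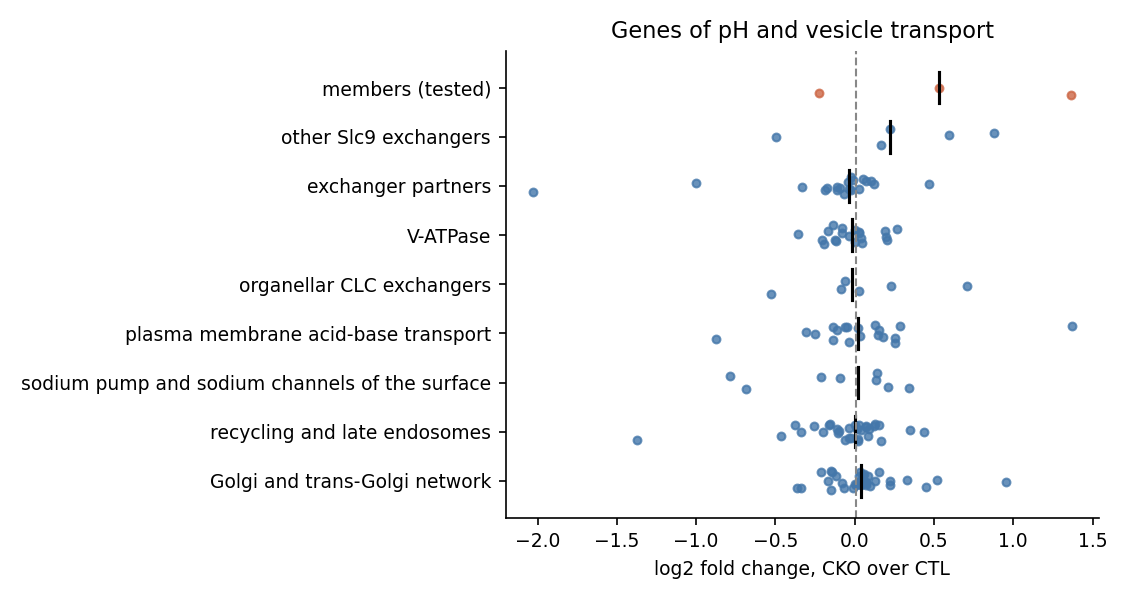
Log2 fold change (Cited2 CKO over Cited2 CTL) of each tested gene in the lists, 1 point per gene, with a black bar at the list median and a dashed line at the median of all tested genes. The list medians lie between -0.038 and 0.22. The median of the 3 tested members, in orange, is 0.53, the value of Slc9a7 (standard error 0.54). The members were chosen with this contrast known, so their place beside the lists is only a description.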

How the data were processed

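RNA of sorted HSCs was sequenced as single-ended reads. The authors aligned them to GRCm38 (mm10 in the submitters' processing notes) with HISAT2, counted them with Rsubread and deposited the counts by gene symbol, not normalized, with a length in bases for each gene. The gene annotation of the counting step, its handling of multimapping reads and its use of strand are not given in the sources used here. Samples were grouped by their genotype labels, 5 per genotype. Totals of 3058690 to 4548795 counts per library limit the precision for genes with few reads. Libraries of the same genotype also differed by more than sampling noise. The mean chi-square per gene of such pairs was 4.69 (CTL 2 and CTL 4) to 12.4 (CKO 3 and CKO 5).

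The main test was run with edgeR 4.0.16 in R 4.3.3 (filterByExpr, TMM, robust quasi-likelihood fit, genotype only, Benjamini-Hochberg adjustment over 14165 genes). A gene was called at an adjusted p under 0.05 and a fold change above 20%, with a common biological variation (BCV) of 25.3%. A prior count of 2 was used for log2 CPM. FPKM was computed from the counts, the normalized library total and the deposited length. Correlations within genotypes were tested with 100000 permutations. Positions and GC content came from GENCODE M21, with a GC value for 98.1% of tested genes, promoters from RefSeq (GRCm38.p6; all 4 members matched), and proteins were translated from GENCODE coding sequences and aligned with Biopython 1.88.

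The members and lists were chosen with earlier results of these data known. Some genes of the family are not reported here. Genes named are the members, the other Slc9 genes examined, per list and per member's neighbourhood (500 kb) the called genes and otherwise the 2 with the smallest p, the 3 genes most correlated with each member, and *Cited2*, *Xist* and Y-linked genes as checks. The mast cell and basophil genes were named because their sum did not overlap between the genotypes, after their values were seen. Alternatives were DESeq2 1.42.0 (Wald test), its size factors in edgeR, the replicate number as a block, a GC and length offset (loess, span 0.5) with and without that block, limma-voom (limma 3.58.1), no filter, a filter of 10 counts per sample, *Xist* as a covariate, and each library left out in turn. Part of a genotype effect that tracks GC content can be removed by the offset. The fit and the correlation test were tried on simulated data beforehand.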

Additional observations from a re-analysis of the deposited data

Results flagged for a closer look

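Each exchanger was examined for a library far from the others of its genotype, in 20 groups of 5 libraries. *Slc9a3* in *Cited2* CTL HSCs was found: CTL 3 had 5.59 CPM, and its gap to the next library was 0.850 of the range of the group, above Dixon's critical value of 0.71 for 5 libraries. The other *Cited2* CTL libraries of *Slc9a3* began at 1.77 CPM, and the counts were 7 to 19 per library. The gene is not among the members. Chance alone flags about 1 in 20 such groups, and 1 of these 20 was found.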

How the results depend on the processing

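The directions of *Slc9a7*, *Slc9a8* and *Slc9a9* did not change in any alternative, and the call of *Slc9a9* did. Its log2 fold change was 1.41 with the replicate block (adjusted p = 0.103), 1.32 with the GC and length offset (0.168), 1.37 with both (0.220) and 1.37 with *Xist* as a covariate (0.0620), all edgeR, and 1.22 to 1.55 when each library was left out (adjusted p 0.0376 to 0.0929). It kept its call with DESeq2 (adjusted p = 5.75e-05), DESeq2's size factors, both other filters and limma-voom (0.0404). The fits that leave out a library rest on fewer libraries, and why the call was lost in any setting was not tested. Labels number the libraries of both genotypes 1 to 5. The deviations of same-numbered libraries from their group means correlated at 0.0096, -0.095, 0.21, 0.0027 and 0.19. Only those numbered 5 correlated best with their own number. CTL 5 and CKO 5 also had the highest granulocyte marker sums of their genotypes (745 and 475 CPM), and the part of this was not tested. These 5 correlations are too few to decide whether same-numbered libraries share more than a number. Calls over all genes, 17 higher and 15 lower, were 15 and 9 with the block, 5 and 3 with the offset, 9 and 3 with both, 146 and 192 with DESeq2, and 5 to 27 and 3 to 18 when each library was left out. DESeq2 called 2 exchanger partners, 1 gene of endosomes, 1 of the Golgi, and 1 neighbour each of *Slc9a5* and *Slc9a7*, where edgeR called 0. The log2 fold change of *Slc9c1* turned to -0.017 with the offset and to between -0.12 and 0.68 when each library was left out. Left-out libraries also turned the weak correlations, over ranges of -0.39 to 0.078 (*Slc9a5* and *Slc9a8*), -0.13 to 0.31 (*Slc9a5* and *Slc9a9*), -0.32 to 0.35 (*Slc9a7* and *Slc9a8*), -0.066 to 0.24 (*Slc9a7* and *Slc9a9*) and -0.27 to 0.28 (*Slc9a8* and *Slc9a9*). Few counts limit *Slc9a5*, *Slc9a4* and *Slc9a2* most. *Slc9a7* had no value with at least 10 counts in every sample.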
